A study of Rattus norvegicus with 4 samples.

Results

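Sorting receptors of the VPS10 family and the neurotrophin ligands and receptors they work with were followed in rat hippocampal progenitor cells. The 10 genes were Sorcs1, Sorcs2, Sorcs3, Sort1 and Sorl1 for the sorting receptors, Ngfr, Ntrk2 and Ntrk3 for the neurotrophin receptors, and Bdnf and Ntf3 for the ligands. They were chosen by name, starting from the measured values of Sorcs2, which was higher than in DMSO with all 3 treatments. The difference of Sorcs2 from DMSO is therefore given as a description. All 10 of the 14217 named genes on the arrays had at least 1 probe set, and 24 probe sets were annotated to them. Of the 10 genes, 6 had a probe set above the floor of log2 = 5 on at least 1 array. The floor is the limit under which the deposited values were not read as specific signal. The other 4 (Sorl1, Ngfr, Bdnf and Ntf3) were below it on every array.

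The cells came from Fisher 344 rats, whose age the labels do not give, and each of the 4 groups was 1 Affymetrix array. They had received DMSO (the solvent), 1 uM of retinoic acid (RA) together with forskolin, or KHS101 at either 1.7 or 5 uM. In the series design DMSO is the negative and retinoic acid the positive control, forskolin is not named there, and its dose is not given. Per the labels' protocols, the cells were of early passage, had been expanded with basic fibroblast growth factor, and were kept with compound for 4 days in N2 medium. The number of animals is not given. KHS101 is a small molecule studied for neuronal differentiation, retinoic acid is the ligand of the nuclear RA receptors, and forskolin activates adenylyl cyclase. With 1 array per group no difference has a replicate check or a p-value, and precision is limited by having 4 arrays in all. A difference of 2-fold or more was called. All comparisons with DMSO share the same DMSO array.

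Neurotrophins are made as precursors that are cut to the mature factor. The mature forms act through TRK receptor tyrosine kinases: BDNF binds TRKB, the product of Ntrk2, and NT-3, the product of Ntf3, binds TRKC, the product of Ntrk3. Precursors bind the p75 receptor, the product of Ngfr, together with a VPS10 receptor such as sortilin (Sort1) or SorCS2. The receptors SorCS1, SorCS3 and SorLA (Sorl1) carry the same VPS10 domain and move cargo between the Golgi apparatus, endosomes and the cell surface. In the hippocampus this system is known for its part in neuronal survival, growth cones and synaptic plasticity.

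Between 8389 and 8471 genes per array lay above the floor, and Pearson's r over all probe sets lay between 0.981 and 0.996 for the pairs of arrays, probe sets not being independent replicates. Among progenitor markers, 5 of 9 with a probe set were above the floor on each array (Nes, Sox2, Vim, Hes1 and Fabp7), while Pax6, Hes5, Prom1 and Sox1 were below it on all 4. Of 14 neuronal markers, 7 were above it somewhere, and Dcx, Rbfox3, Snap25, Nefl, Stmn2, Neurod1 and Slc17a6 were below it on all arrays. None of 10 microglial and none of 5 choroid plexus and ependymal markers was above it on any array. The 5S ribosomal RNA control probe set read 2.81 in DMSO, 5.27 and 7.89 with KHS101 at 1.7 and 5 uM, and 2.54 with RA and forskolin. The 3' minus 5' difference of beta-actin was 1.26, 1.40, 1.54 and 1.37 in the same order. The part of these quality values in the results below was not tested.

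**Figure D1:**
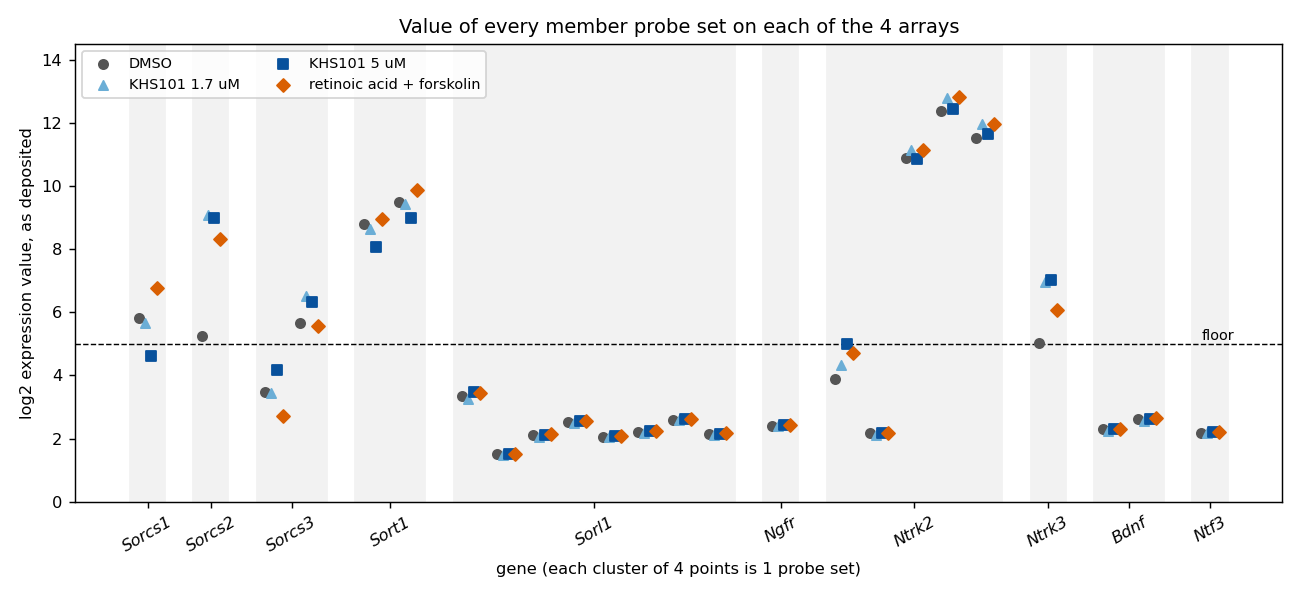
Deposited log2 value (vertical axis) of each of the 24 probe sets of the 10 genes (horizontal axis, shaded by gene) on the 4 arrays, with the floor of 5 as a dashed line. Values of different probe sets are not comparable in height. The Sorcs2 probe set read 5.25 in DMSO and between 8.33 and 9.08 on the treated arrays, and all probe sets of Sorl1, Ngfr, Bdnf and Ntf3 lay at or under 3.47.

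The sorting receptor SorCS2, which forms a complex with p75 and binds the BDNF precursor, was the member furthest from DMSO. Its only probe set had log2 values of 5.25 in DMSO, 9.08 with KHS101 at 1.7 uM, 8.99 with KHS101 at 5 uM and 8.33 with RA and forskolin. DMSO was thus the low array, close above the floor, and the 3 treated arrays were high. The differences from DMSO were 3.83 on the log2 scale at 1.7 uM (14.2-fold), 3.74 at 5 uM (13.4-fold) and 3.08 with RA and forskolin (8.47-fold). Counted from the largest difference upward, these were place 9 of 8533 measured genes, place 25 of 8543 and place 14 of 8535. The higher KHS101 concentration gave no higher value: the difference of 5 uM from 1.7 uM was -0.09. KHS101 exceeded RA with forskolin by 0.75 at 1.7 uM and by 0.66 at 5 uM, under the 2-fold threshold. Because the DMSO value lay near the floor, raising the floor to log2 = 6 left bounds of at least 3.08, 2.99 and 2.33 in the same order as the differences from DMSO.

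The promoter of Sorcs2 and that of its paralog Sorcs3, which was under 2-fold in every comparison, are shown because the data separate the pair. Both are the 250 bases before a transcript start in RefSeq's annotation of GRCr8, on the plus strand, at chr14:78595837-78596086 for Sorcs2 and chr1:257040192-257040441 for Sorcs3. Capitals mark a match to a motif searched.
Sorcs2: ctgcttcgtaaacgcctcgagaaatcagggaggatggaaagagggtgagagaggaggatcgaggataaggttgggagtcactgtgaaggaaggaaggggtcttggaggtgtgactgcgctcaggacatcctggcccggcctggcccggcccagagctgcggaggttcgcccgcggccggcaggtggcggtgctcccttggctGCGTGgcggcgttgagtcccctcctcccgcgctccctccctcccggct
Sorcs3: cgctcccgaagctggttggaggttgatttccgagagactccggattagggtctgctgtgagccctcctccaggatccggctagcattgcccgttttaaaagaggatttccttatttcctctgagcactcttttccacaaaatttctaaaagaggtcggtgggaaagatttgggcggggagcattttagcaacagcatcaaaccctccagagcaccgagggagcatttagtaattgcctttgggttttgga
The bases G and C made up 66.0% of the Sorcs2 stretch and 49.6% of the Sorcs3 stretch, with a median of 51.2% over 33465 promoters. The motifs, searched on both strands, were the cAMP response element TGACGTCA and its core TGACG, the amino acid response element TTGCATCA bound by ATF4, the hypoxia response cores ACGTG and GCGTG, and the nuclear receptor motifs AGGTCA and GGTTCA. The core TGACG lies within TGACGTCA and can overlap ACGTG. Sorcs2 held 1 match, GCGTG at position -48 from the start, and Sorcs3 held none. GCGTG was present in 25.9% of all promoters, ACGTG in 16.6%, TGACG in 18.2%, AGGTCA in 14.1%, GGTTCA in 9.77%, TGACGTCA in 1.59% and TTGCATCA in 0.693%. A match is a run of letters and not a shown binding site. The table of promoters held 14 for 7 of the 10 genes and none for Ngfr, Ntrk2 and Ntrk3. GCGTG was in 6 of the 14, and besides Sorcs2 these belonged to Bdnf and Ntf3, both below the floor on every array. Bdnf had 6 of the 14 promoters and Ntf3 had 3. Some promoters of each gene overlap, so the same site can be counted more than once. Promoters of Sort1, Sorl1 and Sorcs1 held other motifs searched. Sort1 and Sorcs1 were not called against DMSO, and Sorl1 was below the floor.

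SorCS3, a neuronal sorting receptor of the postsynapse, was higher with KHS101 but under 2-fold. Its probe set above the floor read 5.68 in DMSO, 6.50 with KHS101 at 1.7 uM, 6.34 at 5 uM and 5.56 with RA and forskolin. The KHS101 arrays were the high ones, and RA with forskolin was next to DMSO. Differences from DMSO were 0.83 and 0.66 for KHS101 at 1.7 and 5 uM and -0.12 for RA with forskolin. The other Sorcs3 probe set was below the floor on all 4 arrays, between 2.71 and 4.17.

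SorCS1, which is known to bind and sort the amyloid precursor protein and synaptic receptors, was highest with RA and forskolin. Its values were 5.82 in DMSO, 5.66 with KHS101 at 1.7 uM, 4.61 at 5 uM and 6.78 with RA and forskolin. KHS101 at 5 uM was the lowest array and lay below the floor, and the 1.7 uM array was next to DMSO. With the floor, 5 uM was at least 0.82 below DMSO, which is not a call, while the deposited values differed by -1.21 and were called lower with the floor at log2 = 4 or with none. Retinoic acid with forskolin was 0.96 above DMSO (1.95-fold), just outside the threshold. Directly compared, Sorcs1 was lower than in RA with forskolin by at least 3.44-fold at 5 uM and by 2.18-fold at 1.7 uM. With the floor at log2 = 6 both of these became bounds of 0.78 on the log2 scale and were no longer called. In the RefSeq gene order of GRCr8, Sorcs3 and Sorcs1 are neighbours with 0 protein-coding genes between them.

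Sortilin, the p75 partner encoded by Sort1, was within 2-fold on every array. Its main probe set read 9.50 in DMSO, 9.44 with KHS101 at 1.7 uM, 8.97 at 5 uM and 9.86 with RA and forskolin. The other probe set read 8.80, 8.63, 8.08 and 8.94 in that order. Both probe sets put KHS101 at 5 uM lowest and RA with forskolin highest. The differences of 5 uM from DMSO were -0.52 and -0.72, and those of 5 uM from RA with forskolin were -0.89 and -0.86. The probe sets of 1 array share its RNA and are not replicates. SorLA, the receptor that returns the amyloid precursor protein from endosomes, had 8 probe sets, none above 3.47 on any array.

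The TRKC gene Ntrk3 was the other member past 2-fold in the comparisons with DMSO. Its only probe set read 5.02 in DMSO, 6.96 with KHS101 at 1.7 uM, 7.02 at 5 uM and 6.07 with RA and forskolin. DMSO was again the low array, and RA with forskolin lay between it and KHS101. The differences from DMSO were 1.95 (3.85-fold) at 1.7 uM, 2.00 (4.00-fold) at 5 uM and 1.06 (2.08-fold) with RA and forskolin, the last just inside the threshold. The KHS101 concentrations differed by 0.05. KHS101 exceeded RA with forskolin by 0.89 at 1.7 uM and 0.94 at 5 uM. As DMSO lay just above the floor, these calls depended on it: with the floor at log2 = 6 the bounds were at least 0.96, 1.02 and 0.07 for 1.7 uM, 5 uM and RA with forskolin, and only 5 uM was called. Quantile normalization lowered the difference of RA with forskolin to 0.95, also under the threshold.

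The TRKB gene Ntrk2 was far above the floor with 3 of its 5 probe sets, and all 3 were within 2-fold. The probe set with the highest mean read 12.37 in DMSO, 12.78 with KHS101 at 1.7 uM, 12.45 at 5 uM and 12.83 with RA and forskolin. The next read 11.52, 11.96, 11.65 and 11.96 in that order, and the third 10.89, 11.15, 10.87 and 11.15. All 3 put 1.7 uM and RA with forskolin high, and DMSO and 5 uM low. The differences from DMSO were between 0.26 and 0.44 at 1.7 uM, between 0.26 and 0.46 with RA and forskolin, and between -0.02 and 0.12 at 5 uM. The fourth probe set, below the floor on every array, read 3.88 in DMSO, 4.32, 4.99 and 4.72 in the same order of treatments, and the fifth lay at or under 2.19.

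The p75 receptor gene Ngfr and the ligand genes Bdnf and Ntf3 were not above the floor on any array. Ngfr read 2.40 in DMSO, 2.38 with KHS101 at 1.7 uM, 2.42 at 5 uM and 2.42 with RA and forskolin. The Bdnf probe sets read between 2.26 and 2.64, and that of Ntf3 between 2.16 and 2.20. With Sorl1 these make 12 probe sets. All 12 were slightly below DMSO at 1.7 uM (-0.10 to -0.01) and slightly above it at 5 uM (0.01 to 0.11) and with RA and forskolin (0.01 to 0.10). The median over all probe sets was lowest at 1.7 uM (3.67), with 3.68 in DMSO, 3.72 at 5 uM and 3.76 with RA and forskolin. No difference of these 4 genes was read from such values.

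**Figure D2:**
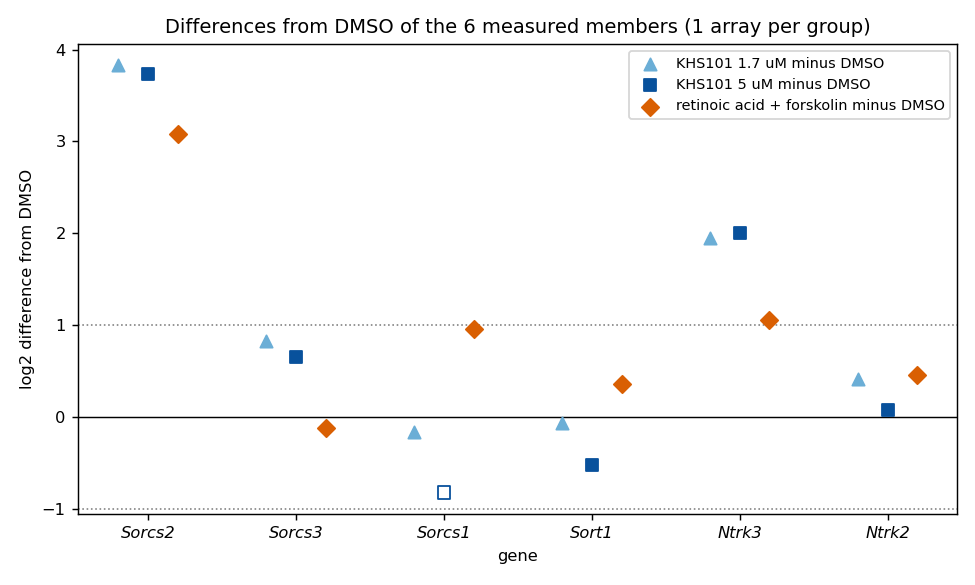
Log2 difference from DMSO (vertical axis) of the 6 genes above the floor (horizontal axis), with 1 point per treatment, the 2-fold thresholds as dotted lines, and an open symbol for a bound. Sorcs2 lay between 3.08 and 3.83 and Ntrk3 between 1.06 and 2.00, and the other 4 genes lay between -0.82 and 0.96.

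Counted together, 2 of the 6 measured members were called higher and 0 lower at each comparison with DMSO, Sorcs2 and Ntrk3 each time. Over all measured genes, 6.16% were higher and 8.1% lower with KHS101 at 5 uM, 4.36% and 4.27% at 1.7 uM, and 4.34% and 3.15% with RA and forskolin. Sorcs2 chose the set, so nothing is read from these counts. The median difference of the 6 genes was 0.37 at 5 uM, 0.62 at 1.7 uM and 0.71 with RA and forskolin, against 0.00, -0.01 and -0.03 over all genes. Without Sorcs2, the gene that chose the set, the medians of the other 5 were 0.08, 0.41 and 0.46, and nothing is read from either. Between the KHS101 concentrations 0 of the 6 passed 2-fold, with 2.54% of all genes called in either direction, and their differences lay between -0.66 and 0.05. Between KHS101 and RA with forskolin 1 of the 6, Sorcs1, was called at each concentration, beside 19.2% of all genes at 5 uM and 11.3% at 1.7 uM.

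**Figure D3:**
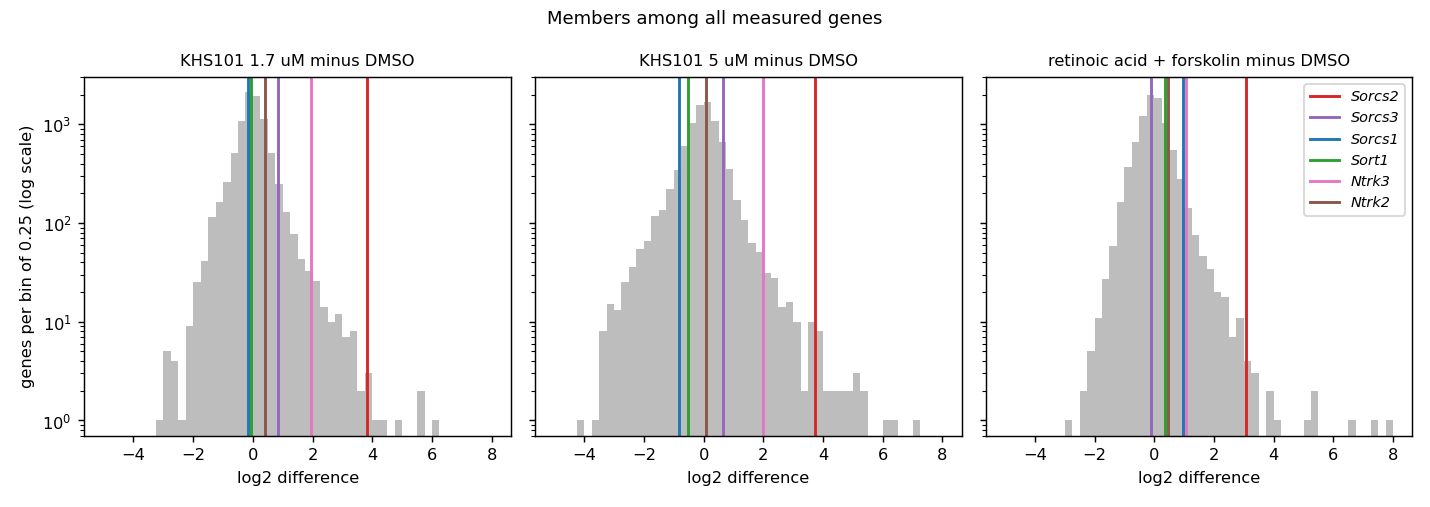
Number of measured genes (vertical axis, log scale) by log2 difference from DMSO (horizontal axis, bins of 0.25, bounds included at their value) for each treatment, with the 6 measured members as coloured lines. Sorcs2 lay in the right tail of each panel, at 3.83, 3.74 and 3.08, Ntrk3 at 1.95, 2.00 and 1.06, and the other members closer to 0.

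The genes whose differences from DMSO were nearest to those of Sorcs2 were found among 8216 genes above the floor on all 4 arrays, by the root mean square distance over the 3 log2 differences. The 3 differences share the DMSO array. In order they were Renbp at 0.84, Pls1 at 0.96, Timp3 and Pfkfb3 both at 1.05, and Tppp at 1.26, with a median distance of 3.58 over all genes. Renbp, which encodes a renin-binding protein, was 7.74-fold above DMSO at 1.7 uM, 13.3-fold at 5 uM and 3.76-fold with RA and forskolin. Pls1, an actin-bundling plastin, was 7.55-fold, 6.82-fold and 4.20-fold above, and like Sorcs2 was slightly lower at 5 uM than at 1.7 uM. Timp3, an inhibitor of matrix metalloproteinases, was 5.86-fold, 6.69-fold and 4.84-fold above, and its other 3 probe sets were also called higher each time. Pfkfb3, a regulator of glycolysis, was 7.68-fold, 15.7-fold and 2.86-fold above. Its other probe set was also called higher with KHS101, by at least 1.34 on the log2 scale at 1.7 uM and 2.84 at 5 uM. With RA and forskolin that probe set was not measured, being below the floor there and in DMSO. Tppp, a tubulin-binding protein of myelinating cells, was 4.04-fold, 7.24-fold and 4.70-fold above. For these 5 genes no difference with RA and forskolin reached that of Sorcs2. As Sorcs2 was chosen for its high values with all 3 treatments, nothing is read from this. Genes below the floor on any array were not compared.

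**Figure D4:**
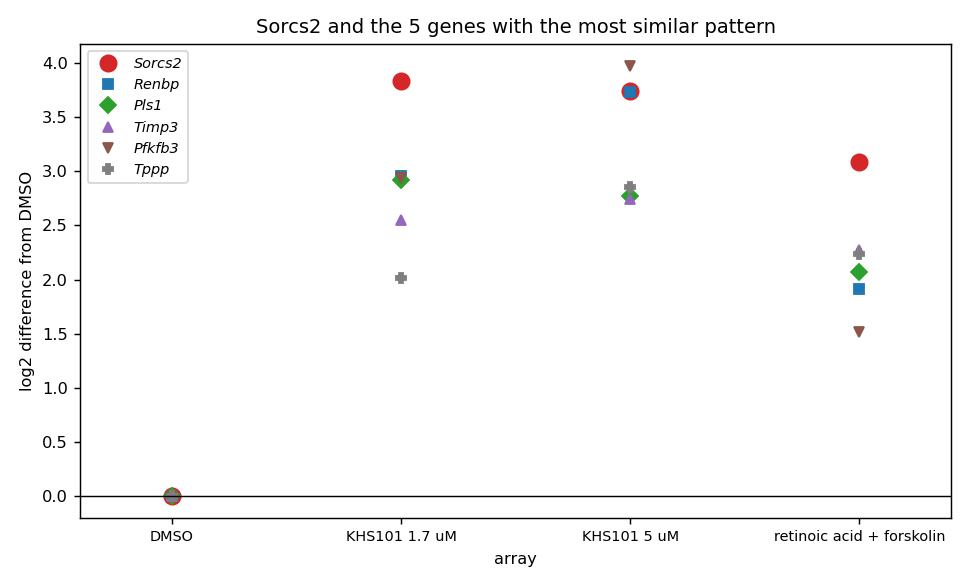
Log2 difference from DMSO (vertical axis) of Sorcs2 and the 5 most similar genes on each array (horizontal axis), with 1 point per gene and array and DMSO at 0. Sorcs2 was above the other 5 at 1.7 uM (3.83) and with RA and forskolin (3.08), while Pfkfb3 was above it at 5 uM (3.98).

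The protein-coding genes beside Sorcs2 were examined in the RefSeq order after its values were seen. Of the 3 on each side, 4 had a probe set and 2 were above the floor, Kiaa0232 and Tada2b. Their differences from DMSO lay between -0.18 and 0.54 over the 3 treatments, and neither was called. Beside Ntrk3, Mrpl46, Mrps11 and Det1 were measured, and their differences lay between -0.94 and 0.53.

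Other genes of the pathway were taken from 6 lists, with 206 further genes on the arrays and 147, 147 and 142 of them measured for KHS101 at 5 uM, at 1.7 uM and for RA with forskolin. Of these, 12 were higher and 6 lower at 5 uM (8.16% and 4.08%), 9 higher and 3 lower at 1.7 uM (6.12% and 2.04%), and 10 higher and 1 lower with RA and forskolin (7.04% and 0.704%). Over all measured genes the shares higher and lower were 6.16% and 8.1%, 4.36% and 4.27%, and 4.34% and 3.15% in the same order. The median differences of the pathway genes were 0.01, 0.05 and 0.10. The shares over all measured genes also stand beside the counts of each list below, and no list was tested against them.

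Among the neurotrophins outside the set and the proteins that process or secrete them, 2 of 6 measured genes were higher at 5 uM, 1 of 6 at 1.7 uM and 2 of 7 with RA and forskolin, and 0 were lower (medians 0.00, 0.11 and 0.45). Plat encodes tissue plasminogen activator, whose product plasmin cuts the BDNF precursor. It read 8.34 in DMSO, 9.75 with KHS101 at 1.7 uM, 9.49 at 5 uM and 10.69 with RA and forskolin, which is 2.65-fold, 2.22-fold and 5.09-fold above DMSO. All 3 treated arrays were above DMSO, and RA with forskolin was highest. Cpe, a carboxypeptidase that also sorts the BDNF precursor into secretory granules, was 2.37-fold higher at 5 uM and 2.25-fold with RA and forskolin, and read 9.75 in DMSO and 10.68 at 1.7 uM, under 2-fold.

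Of 36 measured TRK co-receptors and signal transducers, 1 was higher and 1 lower at 5 uM, 0 and 1 at 1.7 uM, and 2 and 0 with RA and forskolin (medians 0.07, 0.08 and 0.03). Rps6ka5, a kinase that phosphorylates CREB, differed in opposite directions: it read 7.10 in DMSO, 5.90 with KHS101 at 1.7 uM, 5.85 at 5 uM and 8.27 with RA and forskolin. It was 2.30-fold and 2.37-fold lower with KHS101 and 2.25-fold higher with RA and forskolin. Map2k1, the kinase MEK1 upstream of ERK, was 2.56-fold higher at 5 uM, with 10.07 in DMSO and 11.43. The adaptor gene Shc4 was 2.06-fold higher with RA and forskolin.

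Among the partners of p75, the enzymes that shed and cut it and its signal transducers, 1 of 32 was higher and 2 lower at 5 uM, 1 of 33 higher and 0 lower at 1.7 uM, and 2 of 31 higher and 0 lower with RA and forskolin (medians 0.00, 0.00 and 0.21). Omg, a myelin glycoprotein that binds the Nogo receptor complex, was 2.84-fold lower at 5 uM, and Adam10, a membrane metalloprotease, 2.38-fold lower, with its other probe set also called. Zfp110, a zinc finger protein that binds p75, was 2.09-fold higher at 5 uM. Tnfrsf19, a TNF receptor that can take the place of p75 in the Nogo receptor complex, was 3.71-fold higher with RA and forskolin, reading 7.96 in DMSO and 9.85. The JNK gene Mapk9 was 2.05-fold higher at 1.7 uM and 3.09-fold with RA and forskolin. The other Mapk9 probe set differed by 0.82 at 1.7 uM, under the threshold, and by 1.67 with RA and forskolin.

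Genes of VPS10 receptor trafficking (retromer, GGA and AP adaptors, sorting nexins, clathrin) were nearly all within 2-fold, as were most measured genes. Over all measured genes, 14.3% at 5 uM, 8.63% at 1.7 uM and 7.49% with RA and forskolin were called in either direction. Of 33 measured, 1 was lower at 5 uM, Trappc1, a tethering complex subunit, by 2.26-fold, and 0 were called at 1.7 uM or with RA and forskolin (medians -0.07, 0.00 and 0.06). Among ligands and cargo of the VPS10 receptors, 0 of 19 were higher and 1 lower at 5 uM and at 1.7 uM, and 2 of 18 were higher and 1 lower with RA and forskolin (medians 0.00, 0.31 and 0.50). Lpl, the lipoprotein lipase bound by sortilin and SorLA, was the lower gene each time. It read 8.25 in DMSO, 6.90 at 1.7 uM, 6.53 at 5 uM and 6.50 with RA and forskolin, 2.55-fold, 3.28-fold and 3.36-fold below DMSO. Gfra1, the GDNF receptor that SorLA sorts, was 3.24-fold higher with RA and forskolin, and the glutamate receptor gene Gria2 2.16-fold. The other Gria2 probe set differed by 0.92, under the threshold.

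Among the immediate genes that can follow TRKB activation, calls were mostly higher, but most measured genes were not called. The list had 38 genes with a probe set. Arc, Egr3, Egr4, Fosb, Junb and Vgf were among those below the floor on every array. Measured but not called were 13 genes at 5 uM, 13 at 1.7 uM and 16 with RA and forskolin. Of 22 measured at 5 uM, 8 were higher and 1 lower, of 21 at 1.7 uM, 7 were higher and 1 lower, and of 18 with RA and forskolin, 2 were higher and 0 lower (medians 0.25, 0.51 and 0.11), beside 6.16%, 4.36% and 4.34% of all measured genes called higher. The list was chosen with earlier results known, and its difference from other genes was not tested. A gene below the floor in DMSO, such as Klf4, Gadd45b, Atf3 or Egr2, was measured only where the treated array was above the floor. The numbers measured, and so the counts, therefore depend in part on the values themselves. The largest were Klf4, Gadd45b and Atf3, transcription and stress-response genes that many stimuli besides neurotrophins induce. All 3 were below the floor in DMSO and were at least 35.4-fold, 30.5-fold and 22.8-fold higher at 5 uM and at least 11.9-fold, 10.0-fold and 9.86-fold at 1.7 uM. They were also below the floor with RA and forskolin. Egr2, an early growth response factor, read 3.19 in DMSO, 7.12 at 1.7 uM, 8.12 at 5 uM and 8.98 with RA and forskolin, where it was at least 15.7-fold higher. Its relative Egr1 was called higher with all 3 treatments, 2.30-fold with RA and forskolin, 2.57-fold at 5 uM and 2.30-fold at 1.7 uM. Nr4a2 was at least 3.98-fold lower with KHS101 at both concentrations by its main probe set, and by at least 0.19 on the log2 scale by the other, which was not called.

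**Figure D5:**
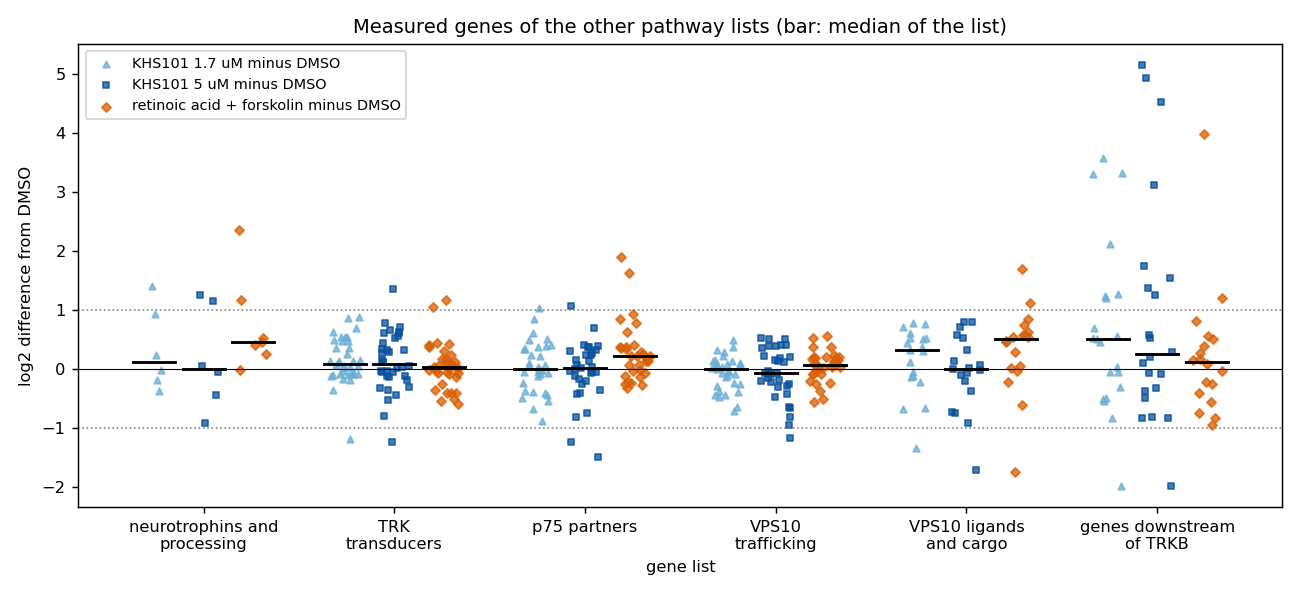
Log2 difference from DMSO (vertical axis) of each measured gene in the 6 other pathway lists (horizontal axis), with 1 symbol per treatment, a bar at each list's median, bounds drawn at their value and the 2-fold thresholds as dotted lines. Medians lay between -0.07 and 0.51, and the points above 3 belong to the genes downstream of TRKB.

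Cell type markers also differed between the arrays. The summed linear signal of the 9 progenitor markers was 0.805 times that in DMSO at 1.7 uM, 0.602 times at 5 uM and 0.92 times with RA and forskolin. Such sums follow the brightest probe sets, here Fabp7, Vim and Sox2. Members differed: Fabp7 read 14.59 in DMSO, 13.39 at 1.7 uM and 12.48 at 5 uM, while Hes1 was 2.89-fold and 2.54-fold higher and Nes 1.52-fold and 1.44-fold above DMSO, under the threshold. The list's median difference was 0.02 at 1.7 uM and -0.40 at 5 uM. With RA and forskolin the median was -0.20 and Vim was 2.16-fold lower. The summed signal of 11 oligodendrocyte lineage markers was 0.646, 0.438 and 1.31 times DMSO at 1.7 uM, 5 uM and with RA and forskolin, with 8 to 10 of them above the floor per array. That of 8 astrocyte markers was 1.04, 0.842 and 2.06 times, with 3 above the floor on each array and Gfap and Aqp4 below it on all. That of 14 neuronal markers was 1.20, 1.15 and 1.31 times, with 5 or 6 above the floor per array, and Map2 was the brightest of them, at 12.46 in DMSO. Gad1, the enzyme that makes GABA, was at least 4.12-fold higher at 1.7 uM and 7.75-fold at 5 uM, and Nefm, a neurofilament subunit, at least 2.23-fold at 5 uM. Tubb3, a neuronal tubulin, was 2.20-fold higher with RA and forskolin. The synaptic vesicle genes Syt1 and Syn1 read 7.48 and 5.50 in DMSO and 6.84 and 4.71 at 5 uM, and were not called. Of the oligodendrocyte lineage markers, 3 of 9 measured were lower at 1.7 uM and 7 of 9 at 5 uM (medians -0.63 and -1.24). Of all measured genes 4.27% and 8.1% were lower. With RA and forskolin 1 of 10 was higher and 0 lower (median 0.26). Mbp read 12.07 in DMSO, 10.54 at 1.7 uM, 9.96 at 5 uM and 13.36 with RA and forskolin. In DMSO, Olig1 read 14.09, Cnp 14.02, Pdgfra 12.99 and Sox10 12.67. In such bulk samples more cells of a type and more RNA per cell cannot be told apart. Fibroblast, meningeal and pericyte markers summed to 1.95, 1.27 and 41.6 times DMSO with 2 or 3 of 10 above the floor. The last value came almost wholly from Mgp, a matrix protein gene, which read 5.13 in DMSO and 13.06 with RA and forskolin. Postn was higher with all 3 treatments, by at least 6.86-fold at 1.7 uM, 3.48-fold at 5 uM and 3.96-fold with RA and forskolin. Igf2 differed by 1.91-fold with RA and forskolin. Col1a1, Col1a2, Col3a1, Dcn, Lum, Pdgfrb and Rgs5 were below the floor on all arrays. Endothelial markers were above the floor on 1 array, 2 of 6 with RA and forskolin, and Schwann and neural crest markers summed to 0.674, 0.547 and 1.38 times DMSO with 3 or 4 of 6 above the floor. The oligodendrocyte marker Mag is also among the p75 partners, and the Schwann cell marker Egr2 among the genes downstream of TRKB. The part of these cell types in the values of Sorcs2, Ntrk3 and the other members was not tested.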

How the data were processed

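Total RNA of the 4 groups was hybridised to Affymetrix rat arrays, 1 array each. The deposited values are log2 expression values of 31099 probe sets. GCRMA and R 2.6.2 are named, per the submitters' processing notes, with no role or order. The genome build was not given in the sources used here, and the range of the values set the log2 scale. GCRMA brings arrays to nearly 1 distribution, so a shift of all genes together would not show.

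Probe sets were named through the platform annotation: 20826 had 1 gene symbol, 436 several and 9780 none, and 57 were array controls. Only those with 1 symbol were used. Where a gene had several, that of highest mean stood for it, and values were raised to a floor of log2 = 5. A gene was measured if 1 of the 2 arrays compared was above the floor, and called at a 2-fold difference. Where 1 of them lay at the floor the difference is a bound. No test was run. The call rule was checked on simulated data.

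The members and lists were chosen with earlier results of these data known. Every member and probe set was named, with the 3 largest called genes per list, direction and comparison with DMSO, and the 5 genes most like Sorcs2. The plan held protein alignments, which were not used here. Promoters came from RefSeq (GRCr8). Alternatives covered the floor, the threshold, the probe set rule and the normalization. Calculations used Python 3.11.15, numpy 2.4.6, pandas 2.3.3 and matplotlib 3.10.9.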

Additional observations from a re-analysis of the deposited data

How the results depend on the processing

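Over 9 alternatives, 305 member differences were recomputed. Of these, 281 stayed on the same side of the threshold, 7 were no longer called and 17 became called. Direction was compared only where a difference was called in at least 1 of the 2 settings, and there 0 changed direction. The alternative thresholds leave every difference as it was, and a change of floor cannot reverse one. Members with only 1 probe set also kept their values under the probe set rules. The count of 0 was thus largely fixed in advance, and nothing is read from it. Differences uncalled in both settings were not checked for direction. Sorcs2 was called in all comparisons with DMSO under each alternative. Its differences lay between 2.99 and 3.74 at 5 uM, 3.08 and 3.84 at 1.7 uM and 2.33 and 3.11 with RA and forskolin. Sorcs2 chose the set, so nothing is read from this. Its only probe set lay above log2 = 5 on every array, so the probe set rules and lower floors could not change its differences. Reported differences of 3.08 or more also pass both alternative thresholds. With the floor at log2 = 6, 1 member was called at 1.7 uM and 1 with RA and forskolin, beside 8% and 6.74% of all measured genes. For KHS101 at 5 and 1.7 uM against RA with forskolin 0 members were called, beside 18.4% and 10.6% of all measured genes. At 3-fold, 1 member was called with RA and forskolin against DMSO and 0 for KHS101 at 1.7 uM against RA with forskolin. The shares of all measured genes were 1.97% and 3.73%. At 1.5-fold the counts against DMSO were 4 at 5 uM, 3 at 1.7 uM and 3 with RA and forskolin. Of all measured genes 30.7%, 21.1% and 23.5% were called there. Between concentrations 1 member was called, and against RA with forskolin 5 were called at 5 uM and 4 at 1.7 uM. In the same order 9.89%, 38.7% and 26.9% of all measured genes were called. With the floor at log2 = 4 or none, 1 member (Sorcs1) differed between concentrations, beside 2.79% and 1.94% of all genes. Quantile normalization left 1 call with RA and forskolin and gave 2 for 5 uM against it, beside 7.42% and 19.2% of all measured genes. Other pathway genes called at 1.5-fold and 3-fold numbered 42 and 7 at 5 uM, 31 and 5 at 1.7 uM, and 24 and 6 with RA and forskolin. They came from 147, 147 and 142 measured pathway genes. Of all measured genes, 30.7% and 6.06%, 21.1% and 2.51%, and 23.5% and 1.97% were called in the same order. Of 162 recomputed list counts, 42 moved, which means a change by over 1.5 times or any change to or from 0. Values near the floor, such as those of Sorcs1 and Ntrk3, limit these arrays. No paired analysis was possible because each group has 1 array.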
